A study of Drosophila melanogaster with 2 samples.

Results

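The odorant-binding protein (Obp) genes of Drosophila melanogaster were taken as the protein-coding genes of the Ensembl release 115 annotation whose symbol is Obp followed by a digit. The rule gave 51 of the 13945 protein-coding genes on the 6 main chromosome arms. Of these 51, 29 lie on 2R, 12 on 3R, 6 on X, 2 on 2L and 2 on 3L. A gene whose body lies within 10 kb of another Obp gene was counted as clustered, which put 31 genes into 9 clusters and left 20 single genes. The genes are short: the median gene body was 788 bp, against 2166 bp for all protein-coding genes.

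Odorant-binding proteins are small secreted proteins. In the antenna and other chemosensory organs, support cells around the sensory neurons release them into the fluid of the sensillum, where they bind odorants, pheromones and other small hydrophobic molecules. Amos, a transcription factor of the basic helix-loop-helix class, is a proneural factor needed in the fly for the precursors of many olfactory sensilla. Proneural factors bind E-boxes, which have the form CANNTG. The factor that selects a precursor acts long before the support cells of the adult organ switch on a carrier protein, and many Obp genes are known mainly from adult or larval chemosensory organs.

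Chromatin bound by the tagged factor was sequenced (ChIP-seq, sequencing of immunoprecipitated chromatin) in whole embryos aged 0 to 18 hours, from flies of the strain labelled amos-GFP, whose transgene makes Amos fused to eGFP. Chromatin sheared to pieces of 200 to 800 bp was pulled down through the eGFP tag, and 2 biological replicates form the only group. The labels do not give the promoter or copy number of the transgene, or the cells in which the fusion protein is made, and the antibody field itself reads amos. Whole embryos mix all tissues, so a summit cannot be placed in a cell type, and peak lists hold no expression values with which to check one.

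A peak is an interval of enriched reads, and its summit is the base of highest enrichment. The authors' optimal list from pooled reads, called the pooled list here, holds 5860 peaks. Their conservative list holds 3116, the list of replicate 1 holds 6214 and the list of replicate 2 holds 2973. Each peak carries a signal, the never-negative value given by the authors' peak caller, whose scale is set within each list. Medians of this signal on the main arms were 120.1 in the pooled list, 243 in the conservative list, 76.7 for replicate 1 and 103 for replicate 2. No list gives read counts, so the sequencing depth behind a peak, or behind its absence, is unknown.

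Few Obp genes had a summit at their own promoter. In the pooled list, 2 of 51 genes (3.92%, Wilson 95% interval 1.08 to 13.2) had a summit within 500 bp of an own transcription start site (TSS). Over all protein-coding genes the share was 37.3%. The 2 genes were Obp56b, with a summit 491 bp upstream of its start, and Obp47b, with a summit 465 bp upstream that lies 43 bp from the start of CG7741. Neither summit stands above the median of the pooled list: the signal was 119.8 for Obp56b and 67.7 for Obp47b. The next nearest summit, outside the window, lay 1045 bp from the start of Obp28a. No Obp gene had a summit inside its gene body in the pooled list.

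The share was low in each replicate taken by itself. Replicate 1 had a promoter summit at 2 of 51 Obp genes (3.92%, interval 1.08 to 13.2), again Obp56b and Obp47b, against 39.6% of all genes. Replicate 2 had one at 1 of 51 (1.96%, interval 0.347 to 10.3), Obp56b, against 20.6%. The conservative list held the same 1 gene (1.96%), against 23.8%. The mean of the replicates was 2.94% ± 1.39 (SD, n = 2) for Obp genes and 30.1% ± 13.4 (SD, n = 2) for all genes. The intervals cover the number of genes and not the spread between embryos, and genes are not replicates. No test between groups was possible with 1 group.

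**Figure D1:**
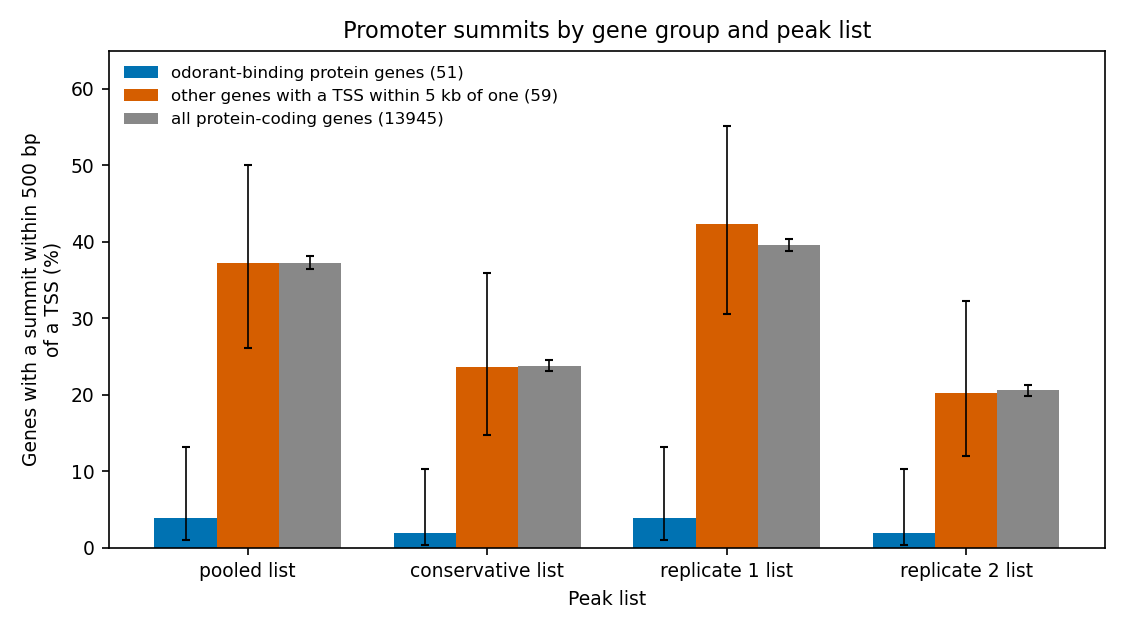
Share of genes (%) with a summit within 500 bp of a TSS in each of the 4 thresholded peak lists. Bars show the 51 Obp genes, the 59 other protein-coding genes with a TSS within 5 kb of one, and all 13945 protein-coding genes; lines are Wilson 95% intervals over genes. The Obp bars stand at 3.92% or 1.96% in every list, while the genes next to them stand between 20.3% and 42.4%, near the bar for all genes.

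The count was repeated with the number of annotated starts held equal, since genes with more than 1 annotated TSS have more windows in which a summit can fall. Among genes with 1 annotated TSS, 2 of 42 Obp genes (4.76%) and 31.8% of all genes had a pooled summit within 500 bp. Measured from the 5′ end of the gene record alone, the shares were 3.92% and 35.4%.

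Within 5 kb of a start, summits were found around a larger share of Obp genes, although again below the share over all genes. In the pooled list 19 of 51 Obp genes (37.3%, interval 25.3 to 51) had a summit within 5 kb, against 59.2% of all genes. The count was 18 in replicate 1 (35.3%, against 61.1%), 13 in replicate 2 (25.5%, against 39.1%) and 14 in the conservative list (27.5%, against 42.1%). The mean of the replicates was 30.4% ± 6.93 (SD, n = 2) for Obp genes and 50.1% ± 15.5 (SD, n = 2) for all genes. Thus 17 Obp genes had a summit within 5 kb but none within 500 bp in the pooled list, and 32 had none within 5 kb.

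Most of these summits sat at the start of some other gene. The 19 genes shared 15 distinct pooled summits, of which 13 were nearer to the TSS of a gene outside the family. Of those 13, 12 lay 10 to 76 bp from the other gene's TSS, and the last lay in a transfer RNA (tRNA) gene. The other 2 summits were nearest to an Obp gene, namely Obp56b and Obp44a. In replicate 1, 14 of 16 such summits were nearer to another gene, each within 65 bp of its start. In replicate 2 the count was 7 of 8. All 15 pooled summits had a q value of 0.05 or less.

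**Figure D2:**
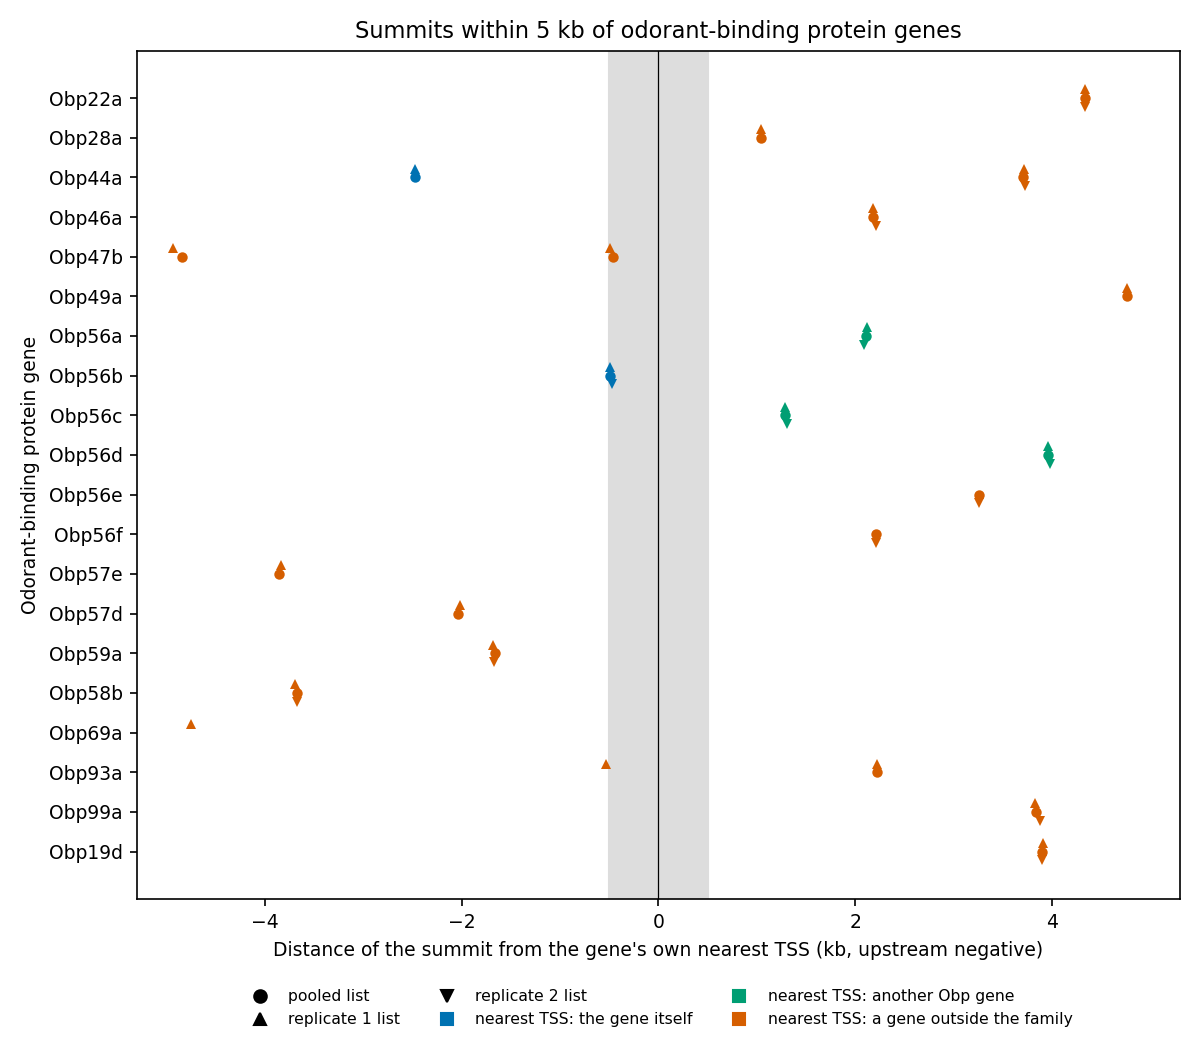
Distance (kb) from each summit within 5 kb to the nearest annotated TSS of the Obp gene named on the vertical axis, upstream negative, in the pooled list and in the list of each replicate. Colour gives the gene whose TSS is nearest to the summit, and the shaded band is the 500 bp promoter window. Only Obp56b and Obp47b have markers inside the band, and only Obp56b and Obp44a have markers in the colour of the gene itself.

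Obp44a, known in the fly brain as a fatty-acid carrier of glia, had the strongest neighbouring summit. That summit lies 3711 bp downstream of its start and 53 bp from the TSS of CG42516, with the starts of Pabp2 and Pbp49 within 500 bp. Its signal was 736 in the pooled list (position 438 of 5860), 581 in replicate 1 and 146 in replicate 2. A second and weaker summit, 2475 bp upstream, had Obp44a as its nearest TSS but lay in an intron of another gene, Lpin, at chr2R:8137610-8137969 in dm6. The signal of this second summit was 67.6 in the pooled list (position 4435) and 55.1 in replicate 1, and replicate 2 had no peak there. Of the summits around this gene, the one in both replicates lies at the clustered starts of its neighbours.

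Obp59a, which is needed for humidity sensing in the fly, and its cluster partner Obp58b shared the summit at robo1. The gene robo1 encodes the axon guidance receptor for Slit. The summit lies 59 bp from the robo1 TSS, 1666 bp from Obp59a and 3675 bp from Obp58b. Signals were 687 in the pooled list, 442 in replicate 1 and 260.5 in replicate 2. The rest of the cluster, up to Obp58d, had no summit within 5 kb.

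Obp22a, Obp46a, Obp19d and Obp99a each had 1 neighbouring summit that was called in both replicates. For Obp22a the summit lies 4340 bp away at Got2, the mitochondrial aspartate aminotransferase, with pooled signal 520.1, replicate 1 signal 462 and replicate 2 signal 33.7. The replicate 2 peak stands at position 2825 of 2973, and its −log10 q of 1.03 is the only one among the 8 summits of that list near Obp genes that does not reach a q value of 0.05. The same summit falls within 500 bp of the start of Npc2a, a sterol-binding protein gene. For Obp46a it lies 2186 bp away at RNaseZ, which trims the 3′ ends of tRNAs, with signals of 415, 255 and 147 in the same order. Obp19d, the last gene of the Obp19a to Obp19d cluster, was 3902 bp from the summit at Pp4-19C, the catalytic subunit of protein phosphatase 4, with signals of 364, 228 and 139. Obp99a was 3840 bp from the summit at Bub3, a spindle checkpoint gene, with signals of 242, 130.0 and 124. In all 4 cases the neighbour's TSS was within 76 bp of the pooled summit.

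Obp93a and Obp28a had neighbouring summits in the pooled list and in replicate 1, with no peak in replicate 2. The summit for Obp93a lies 2222 bp from its start and 10 bp from that of slmb, an F-box subunit of a ubiquitin ligase, with signal 214 in the pooled list and 108 in replicate 1. Replicate 1 also had a summit 536 bp upstream of Obp93a, just outside the promoter window, at 37 bp from Ice2 and with signal 90.2. For Obp28a, an odorant-binding protein abundant in the antenna, the summit lies 1045 bp away and 13 bp from Ziz, a guanine nucleotide exchange factor, with signals of 169 and 135. Obp69a, which takes part in responses to a sex pheromone in the fly, had a summit in replicate 1 alone, 4748 bp away at Ncc69 with signal 80.3.

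Sequences from the Release 6 reference genome (RefSeq), the same build as dm6, are shown for every pooled summit on arms 2L, 3R and X that lies within 5 kb of an Obp gene, each with the stretch upstream of the Obp gene closest to it. They run 5′ to 3′ on the strand of the gene named, and annotated untranslated sequence was left out of the windows around summits. Capitals mark TATCGATA (the DNA replication-related element), GGTCACACT read on either strand, the E-box CANNTG and TATAAA. The summit windows span chr2L:1987770-1987870 for Got2, chr2L:7496308-7496370 for Ziz, chr3R:21127486-21127545 for slmb, chr3R:29675447-29675547 for Bub3 and chrX:20424003-20424042 for Pp4-19C. The Obp stretches are the 100 bases before the start: chr2L:1992161-1992260 for Obp22a, chr2L:7497366-7497465 for Obp28a, chr3R:21129718-21129817 for Obp93a, chr3R:29671557-29671656 for Obp99a and chrX:20419513-20419612 for Obp19d. The pairs differ among themselves: TATCGATA is present in the slmb and Pp4-19C windows. The Got2, Ziz and Bub3 windows hold no capitals, as is also true of the stretches upstream of Obp22a and Obp19d. TATAAA is marked on the printed strand only, and the Bub3 window holds it on the other strand. In replicate 1 the Bub3 summit lies 65 bp from the Bub3 TSS, and the window around it holds TATCGATA. Which motifs a window holds thus depends on where the summit was called.
Got2 summit window: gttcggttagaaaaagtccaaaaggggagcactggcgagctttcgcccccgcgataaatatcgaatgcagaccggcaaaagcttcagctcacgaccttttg
Obp22a upstream: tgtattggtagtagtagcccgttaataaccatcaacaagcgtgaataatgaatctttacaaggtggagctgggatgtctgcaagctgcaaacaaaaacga
Ziz summit window: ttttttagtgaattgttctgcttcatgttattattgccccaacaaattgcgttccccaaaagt
Obp28a upstream: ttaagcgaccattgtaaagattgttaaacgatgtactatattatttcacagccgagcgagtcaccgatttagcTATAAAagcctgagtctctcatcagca
slmb summit window: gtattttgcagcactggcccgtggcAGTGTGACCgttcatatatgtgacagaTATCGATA
Obp93a upstream: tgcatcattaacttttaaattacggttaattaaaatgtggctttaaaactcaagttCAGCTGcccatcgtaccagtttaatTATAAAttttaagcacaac
Bub3 summit window: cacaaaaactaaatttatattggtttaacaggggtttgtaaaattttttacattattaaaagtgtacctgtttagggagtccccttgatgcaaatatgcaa
Obp99a upstream: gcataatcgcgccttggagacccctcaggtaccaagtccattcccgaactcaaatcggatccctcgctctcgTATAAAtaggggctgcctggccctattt
Pp4-19C summit window: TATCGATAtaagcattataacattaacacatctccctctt
Obp19d upstream: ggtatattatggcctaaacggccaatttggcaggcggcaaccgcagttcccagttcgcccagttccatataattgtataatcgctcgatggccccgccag

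Motifs were then counted at the promoters of all members. In a window from 250 bp before to 50 bp after the start, searched on both strands, CGATAG was found at 1 of 51 Obp promoters (Obp19b), against 19.5% of all promoters. TATCGATA, which shares the letters CGATA with that motif so that 1 site can match both, was found at 0, against 9.36%. GGTCACACT was found at 0, against 6.05%. Any of the 3 motifs was present at 1 Obp promoter (1.96%), at 26.5% of all promoters, at 49.2% of promoters with a pooled summit, and at 17 of the 22 promoters with a summit next to an Obp gene (77.3%). Most of the 22 share their summit with another of them, such as CG42516, Pabp2 and Pbp49, so 1 site can be counted for several genes. These counts describe letters in a window and do not show a bound factor.

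E-boxes of the general form were about as frequent at Obp promoters as elsewhere, and the narrower forms differed in both directions. CANNTG was found at 41 of 51 Obp promoters (80.4%), against 77.2% of all promoters. Of its narrower forms, CAGCTG was found at 5 (9.80%, against 17.7%) and CATCTG at 13 (25.5%, against 11.3%). The 13 include Obp50b and Obp50c, whose promoter windows are the same, and Obp50a, whose window overlaps theirs. TATAAA was found anywhere in the window at 36 Obp promoters (70.6%, against 45.8%), and the initiator-like TCAGTT at 17 (33.3%, against 26.1%). On the gene's own strand and between 40 and 15 bp before the start, where a TATA box sits, TATAAA was found at 18 of 51 Obp genes (35.3%), against 7.79% of all genes and 0 of the 22 neighbours with a promoter summit. That narrower window was chosen after the wider counts were seen. Within 50 bp of the 15 summits near Obp genes, CANNTG was found at 3, against 40.4% of all pooled summits, and any of the 3 motifs CGATAG, TATCGATA and GGTCACACT at 7, against 31.7%. All 7 of these lay nearest to a gene outside the family. Of the 15 summits, 12 lay within 200 bp of another gene's TSS, while the pooled list also holds summits away from promoters. No share over promoter summits alone was counted, so these figures do not set the surroundings of Obp genes apart.

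Genes next to Obp genes carried promoter summits about as often as any gene. In all, 59 other protein-coding genes have a TSS within 5 kb of an Obp TSS. A promoter summit was present at 22 of the 59 in the pooled list (37.3%, interval 26.1 to 50), 14 in the conservative list (23.7%), 25 in replicate 1 (42.4%) and 12 in replicate 2 (20.3%). Each value lies near the share over all genes in the same list. Of the 19 Obp genes with a pooled summit within 5 kb, 13 have 1 or more of these 22 genes within 5 kb, and the other 6 are Obp56a to Obp56f. These counts restate where the summits lie, since a neighbour with a promoter summit brings that summit close to the Obp gene.

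Some Obp genes had no near neighbours other than members of their own family. Counting other Obp genes as neighbours, 7 of 51 (13.7%) had no other protein-coding TSS within 5 kb, against 15.7% of all genes. With other Obp genes left out, 19 of 51 (37.3%) had none. Of these 19, the 4 with a pooled summit within 5 kb were Obp56a to Obp56d, which share the summit upstream of Obp56b.

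Clustered and single genes gave similar shares in the pooled list. A promoter summit was found at 1 of 31 clustered genes (3.23%, interval 0.572 to 16.2) and at 1 of 20 single genes (5.0%, interval 0.888 to 23.6). Within 5 kb the counts were 11 of 31 (35.5%, interval 21.1 to 53.1) and 8 of 20 (40%, interval 21.9 to 61.3). Over all genes the pooled shares were 37.3% at the promoter and 59.2% within 5 kb. The intervals overlap widely. In replicate 1 there were 9 genes of each kind with a summit within 5 kb, and in replicate 2 there were 9 clustered and 4 single genes. Of the 9 clusters, 5 had no pooled summit within 5 kb of any member: Obp50a to Obp50e, Obp57c to Obp57a, Obp83a to Obp83b, Obp83cd to Obp83g, and Obp99d to Obp99b. Obp50b and Obp50c have the same annotated start, so they are not separate measurements.

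Obp83a and Obp83b, 1 of the clusters without a summit, are expressed in antennal sensilla that detect pheromones. Obp57e and Obp57d, linked to the choice of egg-laying sites in Drosophila sechellia, form a separate pair. They had a summit 2034 bp from Obp57d and 3860 bp from Obp57e. This summit lies 61 bp from the start of BORCS7, with a start of CG13430 within 500 bp. Its signal was 79.0 in the pooled list and 77.8 in replicate 1, with no peak in replicate 2. Among single genes, Obp49a, which binds bitter compounds at sweet-sensing neurons, was 4763 bp from a summit at Nup188, with signal 119.8 in the pooled list and 103 in replicate 1 and no peak in replicate 2. The 12 single genes with no pooled summit within 5 kb were Obp47a, Obp51a, Obp56g, Obp56h, Obp56i, Obp69a, Obp73a, Obp84a, Obp85a, Obp99c, Obp8a and Obp18a. Obp73a is among the Obp genes most widely kept across insects, and Obp56g is known for its role in seminal fluid.

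Obp47b had 2 pooled summits, both nearer to a neighbour. The closer one lies at chr2R:11303272-11303631 in a coding exon, 465 bp upstream of Obp47b and 43 bp from CG7741. Its signal was 67.7 in the pooled list and 80.2 in replicate 1, and neither the conservative list nor replicate 2 had a peak there. The other lies 4848 bp upstream of Obp47b and 44 bp from CG7745, with signals of 94.9 in the pooled list and 48.8 in replicate 1 (position 4629 of 6214). The conservative list also held this peak, and replicate 2 had no peak there.

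Obp56b was the only Obp gene with a promoter summit in both replicates and the only one whose promoter summit was nearest to itself. The peak lies at chr2R:19699657-19700016 in dm6, with its summit at 19699837 between genes, upstream of Obp56b. The edge of the peak reaches past the 3′ end of Obp56c, at 19699995, into that gene. The signal of the peak was 119.8 in the pooled list (position 2923 of 5860), 49.0 in replicate 1 (position 4615 of 6214) and 71.9 in replicate 2 (position 1882 of 2973). It was also in the conservative list. The summits of the separate calls were 494 bp from the start in replicate 1 and 469 bp in replicate 2, close to the edge of the 500 bp window. The window around the pooled summit held none of CGATAG, TATCGATA, GGTCACACT and CANNTG. The same summit lay 2114 bp from Obp56a, 1287 bp from Obp56c and 3962 bp from Obp56d, so 4 of the 19 genes with a summit within 5 kb rest on it.

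The Obp56 genes span 170992 bp from Obp56a to Obp56i, and most of the peaks there sat at other kinds of gene. The span also holds 96 genes of 5S ribosomal RNA and 9 tRNA genes. Obp56e and Obp56f owe their summit, 3258 and 2208 bp away, to a peak inside tRNA:Ile-AAT-1-9, with signal 170.2 in the pooled list and 132 in replicate 2 (position 1158 of 2973). Replicate 1 had no peak there above its threshold, and its ranked list, which holds weaker regions too, gave a signal of 37.0. A peak inside tRNA:Lys-CTT-1-11, 12920 bp from Obp56h, had signals of 389.9 in the pooled list, 35.5 in replicate 1 (position 5648 of 6214) and 358 in replicate 2 (position 245 of 2973). A peak 33 bp from the start of Toll-7, a Toll-family receptor, had signals of 188 in the pooled list and 169 in replicate 1, and none in replicate 2. The tRNA:Lys-CTT-1-11 peak stood near the top of replicate 2 and near the bottom of replicate 1. Obp56g, Obp56h and Obp56i had no pooled summit within 5 kb.

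**Figure D3:**
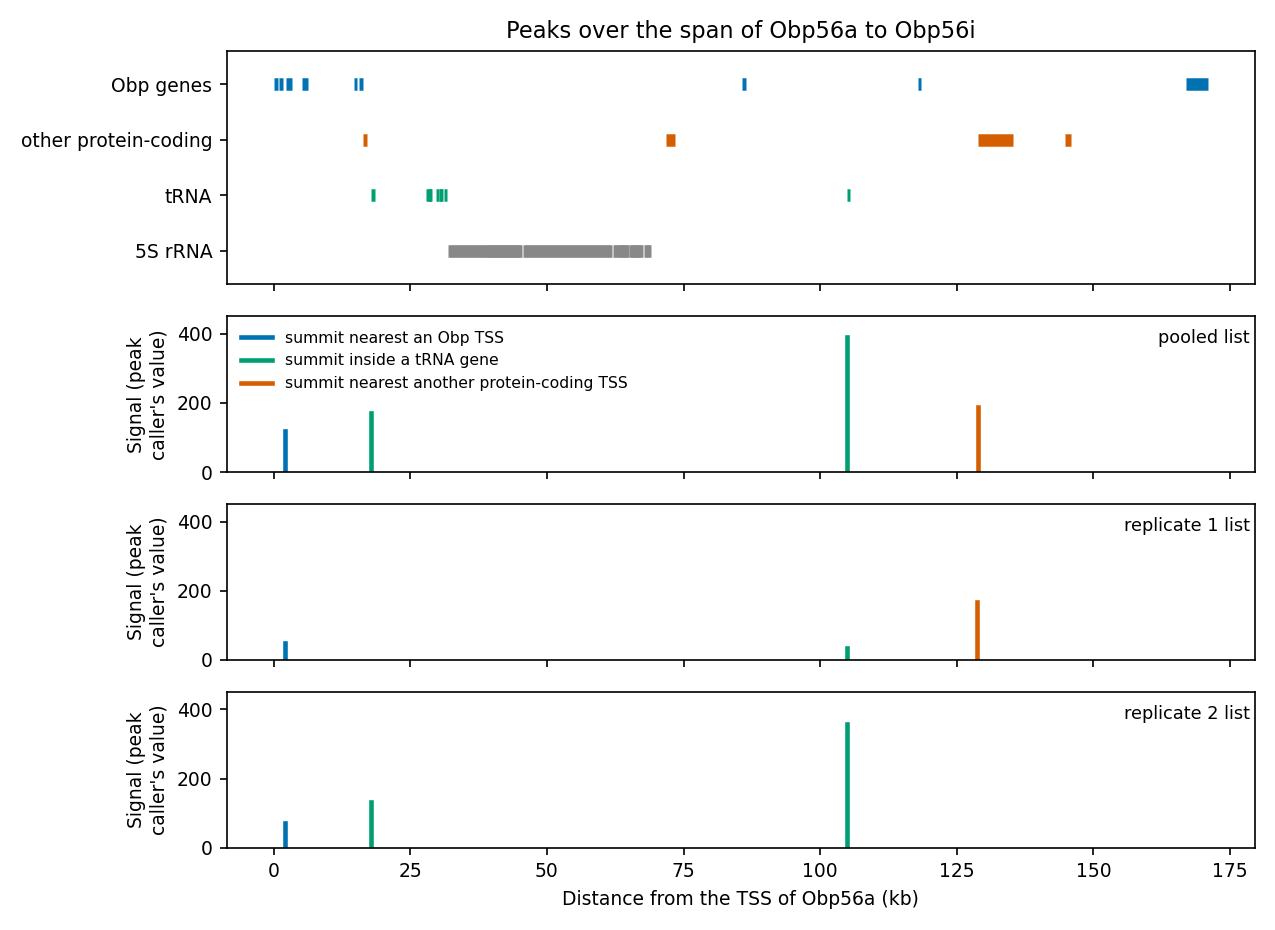
Genes (top) and peak signal (peak caller's value, linear axis from 0) over the span of the Obp56 genes, as distance (kb) from the Obp56a TSS, in the pooled list and in the list of each replicate. Very short genes are drawn at a minimum width. The peak upstream of Obp56b appears in all 3 lists, the peak in tRNA:Ile-AAT-1-9 is missing from replicate 1, and the Toll-7 peak is missing from replicate 2.

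Ranked-list regions at Obp promoters, called peaks included, mostly had low signals. The ranked list of each replicate holds candidate regions before a threshold is set. In the ranked list of replicate 1, 23 of 51 Obp genes (45.1%) had a region with its summit within 500 bp of a start, against 74.4% of all genes. The median of the highest signal at those genes was 11.7, against 45.5 over all genes with a region, and the median of the whole ranked list was 11.7. In replicate 2, 34 of 51 had a region (66.7%, against 62.9%), with a median signal of 12.1 against 20.1 over all genes with a region and 10.8 over the whole list. In both replicates the median at Obp genes was near that of the whole list and below that of all genes with a region. The regions counted include called peaks, such as those of Obp47b and Obp56b. In replicate 1, 39.6% of all genes and 3.92% of Obp genes had a called promoter summit, and in replicate 2 20.6% and 1.96%. The gap between the medians thus partly restates those counts and is not a separate result for weaker regions.

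Only 15 Obp genes had a region in both ranked lists, and 9 had one in neither. Signals ran from 2.71 to 80.2 in replicate 1, with Obp47b highest, and from 4.39 to 71.9 in replicate 2, with Obp56b highest. After these, the highest values in replicate 1 were 27.2 at Obp83g and 24.8 at Obp28a, and neither gene had a region in replicate 2. In replicate 2 the next were 24.8 at Obp99b and 20.9 at Obp69a; replicate 1 gave 14.0 at Obp99b and no region at Obp69a. Obp56d had 19.3 and 17.5.

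**Figure D4:**
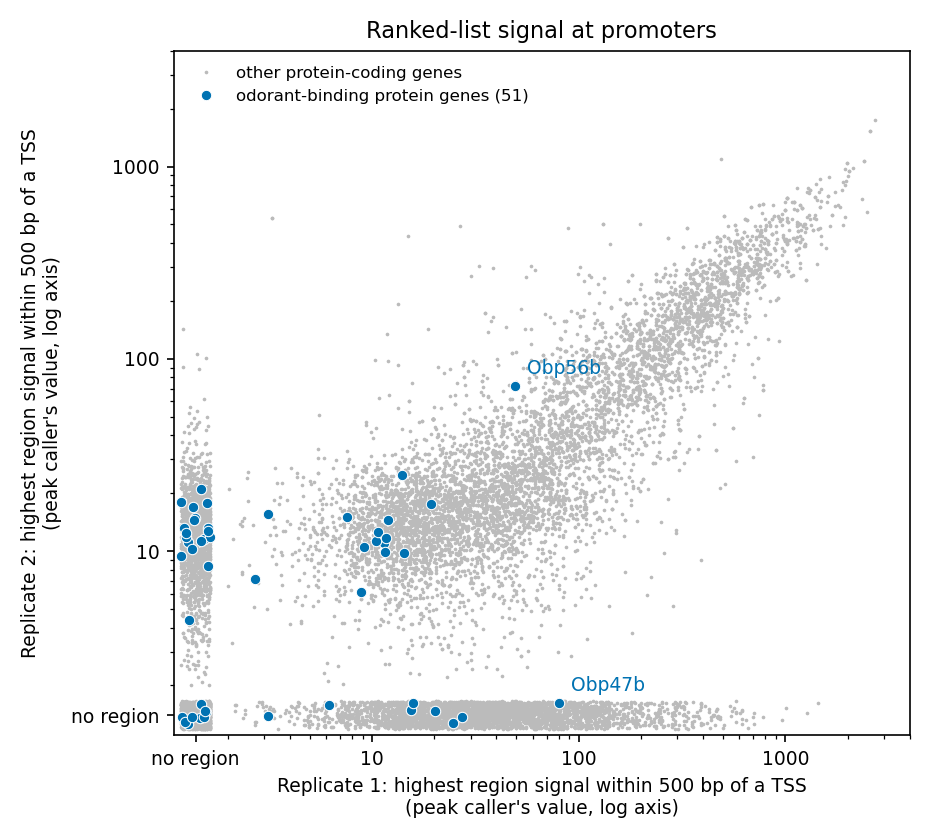
Highest signal (peak caller's value, log axes) of a ranked-list region within 500 bp of a TSS, replicate 1 against replicate 2, for the 51 Obp genes and for the other protein-coding genes. Genes with no region in a replicate are placed with small random spread at the position marked "no region". Obp56b, at 49.0 and 71.9, stands apart from the other Obp genes, and Obp47b has 80.2 in replicate 1 and no region in replicate 2.

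Other chemosensory families were counted in the same way, beside 37.3% of all genes within 500 bp and 59.2% within 5 kb in the pooled list. A pooled summit within 500 bp was found at 0 of 59 odorant receptor (Or) genes, 4 of 60 ionotropic receptor (Ir) genes and 1 of 60 gustatory receptor (Gr) genes, and within 5 kb at 10, 15 and 24. The counts within 5 kb depended on the replicate, with 10, 15 and 18 in replicate 1 and 5, 9 and 9 in replicate 2. The share over all genes also fell, from 61.1% in replicate 1 to 39.1% in replicate 2. A list of 32 other carrier and perireceptor genes gave 6 (18.8%, interval 8.89 to 35.3) within 500 bp and 15 within 5 kb in the pooled list. This list includes Npc2a to Npc2h and EbpIII and is not limited to genes of the chemosensory organs. Replicate 1 gave 3 of these genes within 500 bp and replicate 2 gave 4, so the replicates averaged 10.9% ± 2.21 (SD, n = 2). Over all genes the replicates averaged 30.1% ± 13.4 (SD, n = 2). Its 6 pooled genes were CheA56a, CheB42a, CheB42c, CheB93a, Npc2a and Npc2e, and for the latter 2 the summit was nearer to Got2 or to Fancl. The gene lush, which encodes the odorant-binding protein for a male pheromone but does not bear an Obp symbol, had no summit within 5 kb. The pooled interval for this list overlaps that of the Obp genes, and the difference was not tested.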

How the data were processed

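Libraries of 2 biological replicates formed 1 group. The deposited text files name dm6 and the kinds of list. Per the labels of those lists, calls came from single replicates and from pooled reads and were filtered by irreproducible discovery rate (IDR). For the aligner and peak caller, no name is given in the sources used here. A peak's signal is the authors' deposited value, used only within its list. The deposited lists give q values and, in ranked lists, global IDR as −log10. In all, 4 thresholded and 3 ranked lists were used, and 32 columns of per-input values were not.

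Summits on 6 arms were assigned to annotated TSSs within 500 bp and 5 kb and to the nearest protein-coding TSS. Intervals are Wilson 95% intervals. Scripts used Python 3.11.15, numpy 2.4.6, pandas 2.3.3, scipy 1.17.1 and matplotlib 3.10.9, and summit assignment was tested on simulated summits placed at known distances. The members and lists were chosen with earlier results of these data known. The rule for named genes took every Obp gene with a promoter summit, the 10 with the strongest summit nearer to another gene, each cluster by its first and last member, and the members without summits. Other members, and the members of other lists, were named after their values were seen. The motifs printed are those listed for this report, 8 in all. Alternatives were other windows, lists, cluster gaps, signal limits and start definitions, and leaving out each replicate.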

Additional observations from a re-analysis of the deposited data

Results flagged for a closer look

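A signal in data outside the main measurement was found near Obp56f. Among regions in the pooled ranked list with a global IDR of 0.01 or less, 7 summits within 20 kb of an Obp TSS are absent from the optimal list. All 7 lie 12249 to 15983 bp from Obp56f. They lie in or within 96 bp of tRNA:Glu or tRNA:iMet genes or a tRNA:Glu pseudogene (tRNA:Glu-CTC-5-1Psi). The signals were 607, 461, 332, 304, 272, 165 and 115. The summits with signals of 304 and 272 lie in the same interval, so the summits outnumber the separate regions. No control library was analysed here, and the step that left these regions out of the optimal list is not given in the sources used here.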

How the results depend on the processing

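Of 73 recomputed counts, 50 stayed within 1.5 times the reported count and 23 moved. Some of the 50 could not move, so the tally does not measure stability. All 15 pooled summits had a q value of 0.05 or less, so that limit removed none. A cluster gap of 5 kb gave the same 31 clustered and 20 single genes. The count of 17 does not depend on which other genes compete. Leaving out a replicate used the list of the other replicate, already reported above. No paired analysis was possible because there is 1 group, so no groups share replicate numbers. Obp genes with a promoter summit (2) came to 1 in the conservative list, 0 with peaks above the median signal and 0 with a 250 bp window, and ranged from 1 to 2 with a replicate left out. For clustered genes (1) the count was 0 above the median signal and 0 at 250 bp. For single genes (1) it was 0 in the conservative list, 0 above the median signal and 0 at 250 bp, and 0 to 1 with a replicate left out. Genes with a summit within 5 kb but none at the promoter (17) came to 11 above the median signal, 3 with a 2 kb window and 27 with a 10 kb window. Summits nearer to another gene (13) came to 8 in the conservative list, 3 at 2 kb and 26 at 10 kb, and 7 to 14 with a replicate left out. Clustered genes with a summit within 5 kb (11) came to 5 above the median signal, 3 at 2 kb and 20 at 10 kb. Single genes with one (8) came to 5 in the conservative list and 2 at 2 kb, and 4 to 9 with a replicate left out. Leaving out replicate 1 removed the Obp47b promoter summit; leaving out replicate 2 removed neither. Fewer peaks and narrower windows hold fewer summits by construction. Counts this small move by a large factor with 1 gene, and the lists hold no depth.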
